A study of Mus musculus with 3 samples.

Results

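The 10 genes described here are the ligands and receptors of the vascular endothelial growth factor (VEGF) and angiopoietin families that were measured in single cells of the newborn mouse sinoatrial node region. They were found by gene symbol and are 10 of the 28001 features of the count matrices, each matched to 1 gene ID. The 5 ligands are Vegfa, Vegfc, Figf (the older symbol of Vegfd), Angpt1 and Angpt2, and the 5 receptors are Kdr, Flt1, Flt4, Tek and Tie1. Single-cell libraries were made with the 10x Genomics kit from ICR mice of genotype HCN4H2BGFP at postnatal day 2, and all 3 libraries share this strain, genotype and age. In such a reporter a nuclear green fluorescent protein is made under the control of Hcn4, the gene of a pacemaker channel. The GFP-positive library held cells sorted for this fluorescence, the GFP-negative library held cells sorted for its absence, and the RA library came from unsorted cells. RA is that library's title, whereas its tissue label reads sinoatrial node region, and the title is used here as its name. Each group was 1 library, and the labels used here do not give the number of animals behind it. There are thus no replicates, no difference below carries a test, and every interval is a 95% exact interval that covers counting error only.

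VEGF ligands act on receptor tyrosine kinases of endothelial cells. Vegfa signals mainly through Kdr, while Flt1 binds Vegfa tightly and can limit its supply to Kdr. Vegfc and Vegfd act mainly through Flt4, the receptor best known from lymphatic vessels. Angpt1 activates Tek (also called Tie2) and steadies vessels, Angpt2 is a context-dependent antagonist or weak agonist of Tek that endothelial cells themselves make, and Tie1 has no firmly established ligand of its own and modulates Tek.

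The libraries held 3346, 3276 and 1450 barcodes with 50416748, 38204709 and 19975326 unique molecular identifiers (UMIs, each standing for 1 captured transcript), with the GFP-positive library first, then GFP-negative, then RA. After barcodes with under 500 genes or over 50% mitochondrial UMIs were left out, 7610 cells remained, and 5733 of them (75.3%) passed exactly 1 of 9 gates of marker genes. A gate needed at least 3 of its markers at 2 UMIs or more, and none of the markers is a member. For 8 of the 9 gates, all markers were at their highest in their own class over the pooled libraries, and no marker of another gate was among the class's 10 leading genes. Cells entered a class by these same markers, so this was largely fixed by the gating and is no check of identity. The remaining gate, for erythroid cells, took 6 cells in the GFP-negative and 6 in the RA library. Median depth was 12429, 11417 and 14143 UMIs, haemoglobin made up 0.0927%, 8.89% and 12.4% of UMIs, and 19, 8 and 9 barcodes were shared by the library pairs GFP-positive with GFP-negative, GFP-positive with RA, and GFP-negative with RA. The GFP-positive library was mostly endothelial-like (2368 cells), although it was sorted for a pacemaker reporter, with 270 mesothelial-like and 124 cardiomyocyte-like cells. Of the cardiomyocyte-like cells, 98 passed a sub-gate of nodal genes, which 0 cells of the other 2 libraries passed. The GFP-negative library held 1401 fibroblast-like, 268 mural-like, 162 endothelial-like, 105 macrophage-like and 56 glial-like cells. The RA library held 436 fibroblast-like, 209 endothelial-like, 99 macrophage-like and 52 cardiomyocyte-like cells. Levels are UMIs summed over the cells of a class per 1000000 UMIs of that class (CPM). They are compared only within a gene, since they are not corrected for transcript length.

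The 5 receptors were at their highest in endothelial-like cells in each of the 3 libraries. Tie1 stood at 307 CPM in GFP-positive (95% interval 301 to 313), 249 in GFP-negative (226 to 274) and 239 in RA endothelial-like cells (219 to 259). Tek stood at 208 CPM in GFP-positive, 150 in GFP-negative and 157 in RA endothelial-like cells. Flt1, the decoy-like VEGF receptor, stood at 235, 165 and 174 CPM in the same order. These 3 genes were therefore somewhat higher in the GFP-positive library, by 1.23- to 1.43-fold against GFP-negative cells and by 1.29- to 1.35-fold against RA cells. Kdr, the main signalling receptor of Vegfa, had the opposite order, with 145 CPM in GFP-positive, 179 in GFP-negative and 160 in RA endothelial-like cells, although the interval of its ratio between GFP-positive and RA cells included equality. Flt4 stood at 29.1, 25.0 and 18.7 CPM, with overlapping intervals between the GFP-negative library and each of the others.

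**Figure D1:**
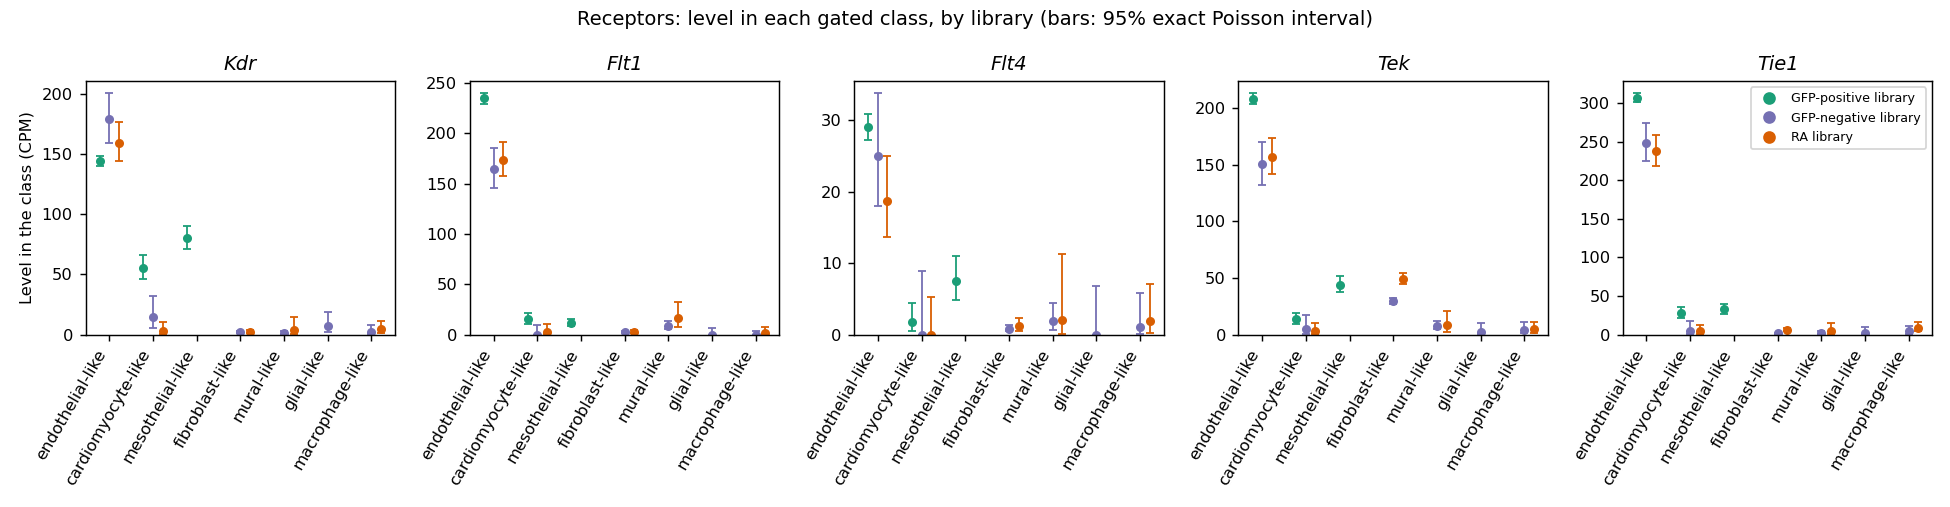
Summed level (CPM, linear axis from 0) of the 5 receptors in each gated class with at least 30 cells, by library; points are single libraries and bars are 95% exact Poisson intervals. All 5 receptors are highest in endothelial-like cells of every library, while Kdr also stands at 80.4 CPM in mesothelial-like and 55.6 CPM in cardiomyocyte-like cells of the GFP-positive library, and Tek at 29.7 and 49.3 CPM in fibroblast-like cells of the GFP-negative and RA libraries.

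A member was called different between libraries where its levels stood at least 2-fold apart with at least 20 UMIs in both together, in classes of at least 50 cells. A level of 0 UMIs was set to 3 UMIs for this purpose, which makes the fold a lower bound. At full depth none of the 5 receptors passed this size in endothelial-like cells between any pair of libraries. With each cell thinned to 2000 UMIs, Tek passed it against GFP-negative cells (log2 ratio 1.10) and Flt4 against RA cells (1.02), both higher in GFP-positive cells. Within the endocardial sub-gate alone, Flt4 passed it against RA cells, on 23 UMIs in GFP-positive and only 2 UMIs in RA cells. That log2 ratio was 1.58 with 0.5 UMIs added to both groups and 1.87 without. The interval of the latter spanned equality. Of all 10 members, 3 passed 2-fold between GFP-positive and GFP-negative endothelial-like cells, against 16.1% of the 13336 genes with enough UMIs. Between GFP-positive and RA endothelial-like cells 2 of 10 passed, against 17.6% of genes. Between GFP-negative and RA endothelial-like cells 1 of the 8 members with enough UMIs passed, against 4.98% of genes. The median log2 ratio of the members was 0.38 against GFP-negative cells, beside 0.08 over all genes, and 0.39 against RA cells, beside 0.04. The members past 2-fold at full depth, all of them ligands, are described below.

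Single endothelial-like cells usually carried several receptors. In the GFP-positive library, 248 of 2368 cells (10.5%, exact binomial interval 9.27% to 11.8%) had at least 1 UMI of all 5 receptors, and only 4 had none. In the GFP-negative library 5 of 162 cells (3.09%) had all 5, and in the RA library 20 of 209 (9.57%). After each cell was thinned to 2000 UMIs, 17.1% of GFP-positive, 27.2% of GFP-negative and 17.7% of RA cells had none. A cell without a UMI of a receptor can thus not be called negative at such depth.

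The sequences upstream of the 4 receptors with the most UMIs are shown because these genes share their class of highest level but differ in what is read outside it. Each run is the 250 bases before the RefSeq transcript start (build GRCm38.p6), read 5′ to 3′ on the strand of the gene. Capitals mark AGGAAG, the letters of 1 kind of site for ETS factors, on either strand (CTTCCT is the same site read on the other strand). Other letters around the shorter core GGAA were neither marked nor counted. GGAA, or TTCC for the other strand, also stands unmarked in each run. The files were made on another build, so these positions do not apply to the authors' alignments.
Flt1, chr5:147726012-147726261, minus strand: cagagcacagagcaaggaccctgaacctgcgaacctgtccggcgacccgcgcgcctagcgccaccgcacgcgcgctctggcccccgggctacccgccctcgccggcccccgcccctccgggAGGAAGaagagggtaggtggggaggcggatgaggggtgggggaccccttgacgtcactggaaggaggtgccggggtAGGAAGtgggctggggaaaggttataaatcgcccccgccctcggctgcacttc
Tie1, chr4:118489850-118490099, minus strand: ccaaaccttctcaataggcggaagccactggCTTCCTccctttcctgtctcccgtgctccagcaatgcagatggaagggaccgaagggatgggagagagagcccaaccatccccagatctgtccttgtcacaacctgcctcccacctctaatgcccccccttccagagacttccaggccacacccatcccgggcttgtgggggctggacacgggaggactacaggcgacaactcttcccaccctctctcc
Kdr, chr5:75978456-75978705, minus strand: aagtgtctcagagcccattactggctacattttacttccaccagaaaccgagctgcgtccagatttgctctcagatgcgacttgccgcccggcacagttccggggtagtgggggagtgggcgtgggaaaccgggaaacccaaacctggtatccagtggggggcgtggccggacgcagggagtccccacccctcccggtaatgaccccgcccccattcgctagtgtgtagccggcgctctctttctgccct
Tek, chr4:94739039-94739288, plus strand: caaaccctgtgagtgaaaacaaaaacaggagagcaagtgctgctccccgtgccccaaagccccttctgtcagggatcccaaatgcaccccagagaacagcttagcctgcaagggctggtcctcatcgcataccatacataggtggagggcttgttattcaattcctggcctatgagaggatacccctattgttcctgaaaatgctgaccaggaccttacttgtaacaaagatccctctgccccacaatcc
Flt1 had 2 matches of AGGAAG and Tie1 had 1, while Kdr and Tek, and likewise Flt4, had no match of these 6 letters. The same 6 letters were found in 29.5% of all 32851 windows of this length, so a match is common and says only that the letters stand there. AGATAA, the letters of a GATA site, were found in 9.99% of windows and, among the members, in those of Vegfa and Figf. ACGTG, the core of a hypoxia response element, was found in 16.6% of windows and only in 1 of the Vegfa windows among the members. That window is chr17:46025164-46025413, and bases past its transcript start were not found in the transcripts checked. The other Vegfa window, chr17:46032378-46032627, had the GATA letters and no ACGTG. The RefSeq table matched 8 of the 10 members, and Angpt1 and Angpt2 are named only.

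Endothelial-like cells of the GFP-positive library were split further by sub-gates, each needing 2 of its own markers. A single sub-gate took 34 cells with lymphatic markers, 141 with endocardial, 373 with arterial, 197 with venous and 24 with capillary markers, while 1411 passed several and 188 passed none. The lymphatic sub-gate differed from the others in opposite directions for Flt4 and Flt1. Flt4 stood at 174 CPM (57 UMIs, 132 to 226) in the lymphatic sub-gate, against 27.6 CPM in the other endothelial-like cells, a 6.32-fold difference. Flt1 stood at 24.5 CPM (8 UMIs) in the lymphatic sub-gate, against 237 CPM in the other cells, which is 9.67-fold lower. Tek was also lower there, with 70.4 against 210 CPM, and Tie1 was level, with 297 against 307 CPM. Of the members, 5 passed 2-fold in the lymphatic sub-gate, against 20.7% of genes. Placing cells of several sub-gates by their most numerous markers enlarged this pool to 104 cells and gave 250 CPM for Flt4 and 19.3 CPM for Flt1.

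Kdr ranged from 65.4 CPM in the arterial sub-gate to 261 CPM (50 UMIs) in the capillary sub-gate, with 92.6 in endocardial, 120 in venous and 242 CPM in lymphatic cells. The order between endocardial and capillary cells was shared by all libraries. Capillary sub-gate cells had 261 CPM in GFP-positive, 242 in GFP-negative and 177 in RA, and endocardial sub-gate cells had 92.6, 92.1 and 88.0 CPM. Tek ran the other way, with 260, 230 and 236 CPM in endocardial and 93.8, 80.6 and 102 CPM in capillary sub-gate cells. The intervals of the endocardial and capillary pools do not overlap for either gene in any library. In the arterial sub-gate 5 members passed 2-fold, against 10.8% of genes: Vegfc and Angpt1 were higher, and Kdr, Flt4 and Angpt2 were lower. Kdr there was 103 CPM, no longer past 2-fold, when cells of several sub-gates were placed by their most numerous markers. In the endocardial sub-gate 3 members passed, against 14% of genes, namely Vegfc (9.56 against 41.6 CPM), Figf on 6 UMIs and Angpt1 on 1 UMI. The log2 ratios of Figf (1.14, −0.36 to 2.34) and Angpt1 (−1.75, −7.07 to 0.77) spanned equality. In the venous sub-gate only Angpt1 passed, on 2 UMIs (log2 ratio −1.26, −4.33 to 0.65), against 8.05% of genes, and in the capillary sub-gate only Tek, against 18.6%. These calls changed when cells of several sub-gates were placed by their most numerous markers. Capillary Tek (log2 ratio −0.84, 64 cells) was then not called, while Kdr (1.30) and Angpt1 (−1.07, 1 UMI) were. Flt4 (−1.19) and Angpt2 (−1.45) were added in venous cells. In endocardial cells Vegfa (−1.04) and Flt4 (−1.01) were added and Figf was lost.

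**Figure D2:**
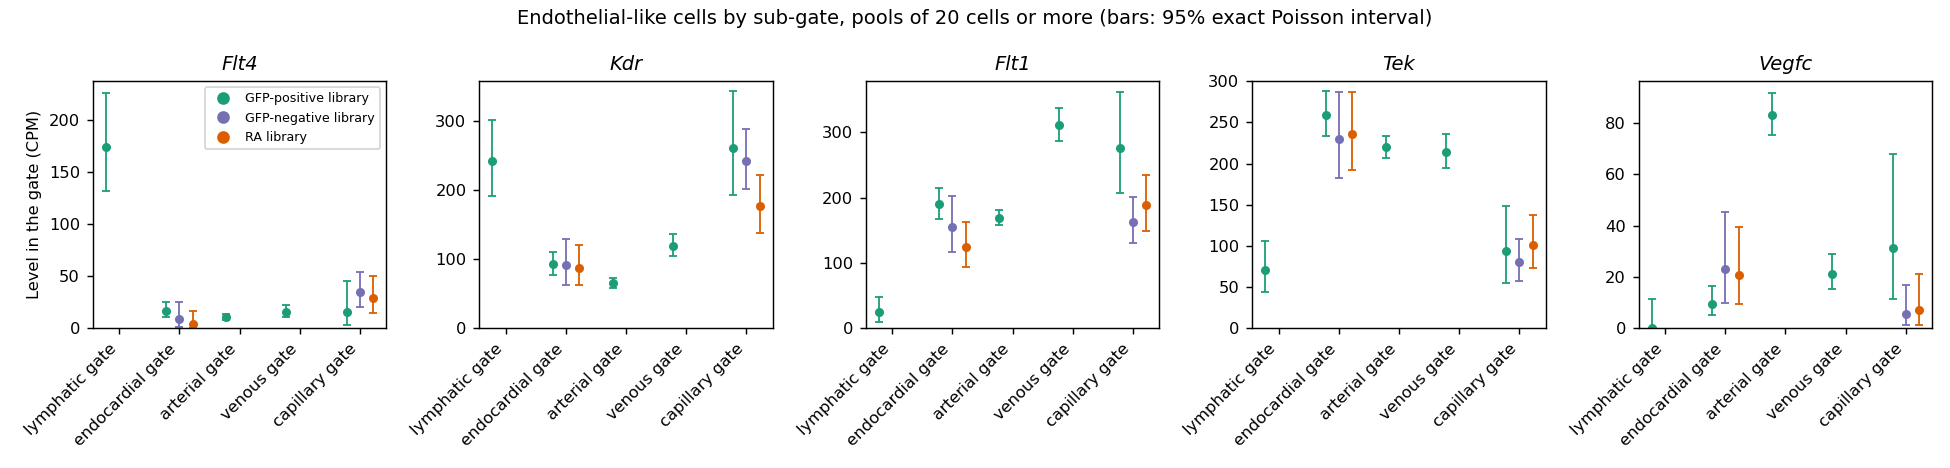
Level (CPM, linear axis from 0) of 4 receptors and of Vegfc in sub-gates of endothelial-like cells, by library, for pools of at least 20 cells; bars are 95% exact Poisson intervals. Flt4 stands at 174 CPM in the lymphatic sub-gate, Kdr and Tek run in opposite order between endocardial and capillary cells in all 3 libraries, and Vegfc is at 83.2 CPM in the arterial sub-gate.

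Outside endothelial-like cells, receptor UMIs were read against the 7 markers of the endothelial gate, because free RNA of other cells can enter a droplet. In fibroblast-like cells Tek stood at 29.7 CPM in the GFP-negative library (511 UMIs) and 49.3 CPM in the RA library (342 UMIs). These levels are 19.8% and 31.3% of those in the endothelial-like cells of the same library, whereas the 7 endothelial markers stood at 0.471% to 1.44% and 1.03% to 3.004%. Tie1, the partner of Tek, stood at 0.537% and 2.42% of its endothelial level, and Kdr at 1.17% and 1.26%, which is within the marker range. Flt4 lay above it, at 3.26% and 6.17%, on 14 and 8 UMIs. Flt1 lay above it in the GFP-negative library, at 1.59% on 45 UMIs, and within it in the RA library, at 1.49% on 18 UMIs. At least 1 UMI of Tek was found in 26.1% of GFP-negative fibroblast-like cells (median depth 11823 UMIs), against 3.81% of macrophage-like cells of that library (8978 UMIs). In the RA library the shares were 47.2% (15959.5 UMIs) and 5.05% (9500 UMIs). After thinning to 2000 UMIs they were 5.78% against 1.90% in the GFP-negative and 9.40% against 1.01% in the RA library. Fibroblast-like cells with and without Tek carried similar levels of the endothelial markers, 31.5 and 33.3 CPM in the GFP-negative library and 72.2 and 73.6 CPM in the RA library. Within GFP-negative fibroblast-like cells, Tek stood at 31.6 CPM in 131 cells with Tcf21 but no Mfap5, at 13.6 CPM in 416 cells with Mfap5 but no Tcf21, and at 40.1 CPM (359 UMIs) in 648 cells with both. Cells with Mfap5 as a whole were thus not low in Tek. The 89 cells with neither gene had 16.7 CPM, and 117 cells with 1 UMI of only one of them had 20.5 CPM. Tcf21 is a transcription factor of resident cardiac fibroblasts, and Mfap5 codes for a matrix protein of adventitial fibroblasts.

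In the 270 mesothelial-like cells of the GFP-positive library, Kdr stood at 80.4 CPM (279 UMIs, 71.3 to 90.4) or 55.6% of the endothelial level. The GFP-negative library held 11 more such cells. The class is named for its markers, and the place of its cells in the tissue was not measured. Its leading genes included Dmkn, Msln and Upk3b, but also Scgb3a1, Scgb3a2 and Reg3g. Tek stood at 43.8 CPM (21.0%), Flt4 at 7.49 CPM (25.8%), Tie1 at 32.9 CPM (10.7%) and Flt1 at 11.5 CPM (4.91%). The endothelial markers had a median of 5.76% there and a range of 4.10% to 43.0%, the highest being the junction gene Esam. Flt1 thus lay beside the marker median, Tie1 above it, and Kdr above all 7 markers. Fibroblast markers were also read in these cells, at 4952 CPM in sum, with the highest single marker at 4424 CPM. Their own mesothelial markers summed to 5932 CPM. Kdr was read in 52.2% of these cells (median depth 11539.5 UMIs), against 15.8% of the 19 macrophage-like cells of the library (13514 UMIs). After thinning the shares were 11.9% and 5.26%. Mesothelial-like cells with and without Kdr had 434 and 448 CPM of endothelial markers. Other receptors did differ between these cells, with 42.1 and 20.3 CPM of Tie1 and 13.5 and 8.81 CPM of Flt1.

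Kdr was also read in cardiomyocyte-like cells of the GFP-positive library, at 55.6 CPM (129 UMIs in 59 of 124 cells), which is 38.4% of the endothelial level. At least 1 UMI was thus found in 47.6% of these cells (median depth 18054 UMIs), against 15.8% of the 19 macrophage-like cells of the library, and after thinning in 8.06% against 5.26%. The endothelial markers stood at 3.87% to 8.52% there, and Flt1 (6.61%), Flt4 (5.93%), Tek (6.41%) and Tie1 (8.97%) lay in or just above that range. Cardiomyocyte-like cells with and without Kdr had 300 and 325 CPM of endothelial markers and 25.2 and 30.1 CPM of Tie1. The RA cardiomyocyte-like cells had 2.82 CPM of Kdr (2 UMIs in 52 cells), and the 32 GFP-negative ones had 14.6 CPM (6 UMIs). In the GFP-positive library the 98 cells of the nodal sub-gate, chosen by pacemaker genes such as Shox2 and Tbx3, had 64.7 CPM (53.5 to 77.6), and the 11 cells of the working atrial sub-gate, chosen by Nppa, Gja5 and similar genes, had 30.1 CPM (11.1 to 65.6), with overlapping intervals.

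**Figure D3:**
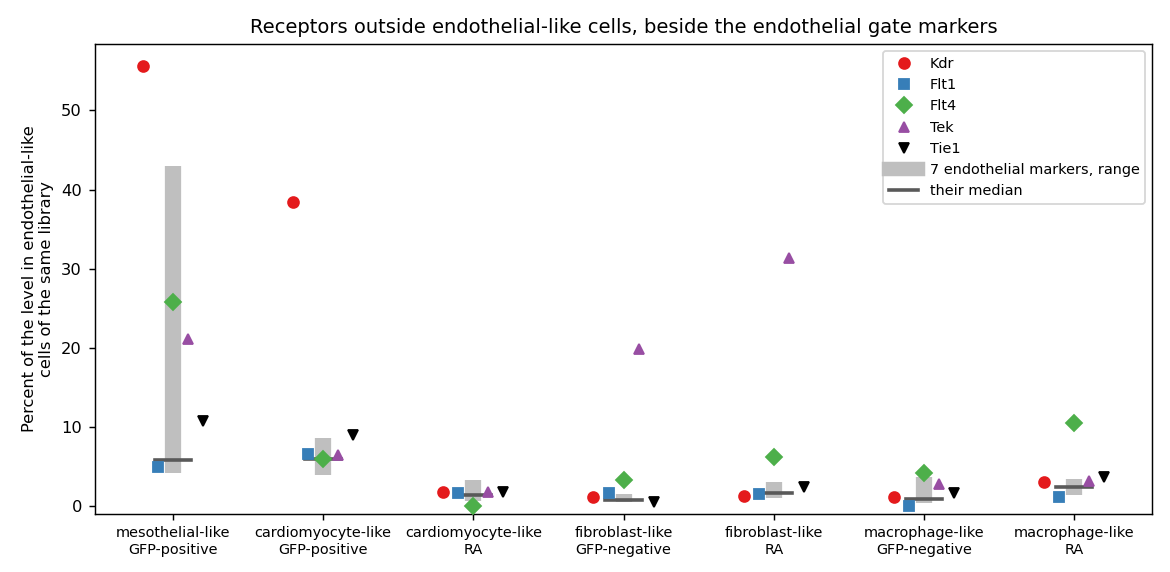
Level of each receptor in classes other than endothelial-like cells, as a percent of the level in the endothelial-like cells of the same library (linear axis); grey bars span the 7 endothelial gate markers and dark lines are their median. Kdr lies above all markers in mesothelial-like (55.6%) and cardiomyocyte-like cells (38.4%) of the GFP-positive library, and Tek in fibroblast-like cells of the GFP-negative (19.8%) and RA (31.3%) libraries.

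Between GFP-positive and RA cardiomyocyte-like cells, 5 of the 6 members with enough UMIs were past 2-fold, against 19.7% of 8733 genes. Kdr, Flt1, Tek and Tie1 were higher in GFP-positive cells and Angpt1 was lower. The log2 ratios were 4.30 for Kdr (2.42 to 7.36), 2.46 for Flt1 (0.50 to 5.56), 2.24 for Tek (0.27 to 5.35) and 2.70 for Tie1 (1.09 to 5.02), on 2 or 3 UMIs each in the RA cells. The 7 endothelial markers moved with them: all 7 were read in both pools, and their sum was 312 CPM in GFP-positive and 69.2 CPM in RA cardiomyocyte-like cells. The part of these markers in the ratios of Flt1, Tek and Tie1 was not tested. At 2000 UMIs per cell no member had enough UMIs for a call.

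Angpt1, the activating ligand of Tek, was highest in working atrial cells. In the working atrial sub-gate it stood at 90.4 CPM in GFP-positive (18 UMIs in 5 of 11 cells), 177 CPM in GFP-negative (52 UMIs in 13 of 20 cells) and 124 CPM in RA (68 UMIs in 18 of 30 cells). With cells of several gates placed by their most numerous markers, the working atrial levels were 53.3 CPM in GFP-positive (16 cells), 147 in GFP-negative and 118 in RA. The nodal level was then 0.773 CPM in 132 GFP-positive cells (2 UMIs). The 1 GFP-negative cell placed in the nodal sub-gate had 3 UMIs (101 CPM, 20.7 to 294). In the nodal sub-gate of the GFP-positive library, without such placing, Angpt1 stood at 1.12 CPM, which is 2 UMIs in 98 cells whose median depth was 17940.5 UMIs. The nodal level was 111-fold lower than in RA working atrial cells (log2 ratio −6.80, −9.87 to −4.89) and 158-fold lower than in GFP-negative ones (−7.31, −10.39 to −5.38). Beside these values, 19.7% and 18.1% of genes stood at least 2-fold apart between the same pools. The contrast was also present within the GFP-positive library, where the intervals were 0.135 to 4.03 CPM in nodal and 53.6 to 143 CPM in working atrial cells. Over whole cardiomyocyte-like classes the levels were 9.91 CPM in GFP-positive, 146 in GFP-negative and 106 in RA cells. All other classes of 50 cells or more stood at 6.11 CPM or less, and none of the macrophage-like cells had a UMI of Angpt1. Endothelial-like cells had 2.41 CPM in GFP-positive (79 UMIs), 0 UMIs in GFP-negative, where 3 UMIs would be 1.79 CPM, and 1.66 CPM in RA (4 UMIs).

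**Figure D4:**
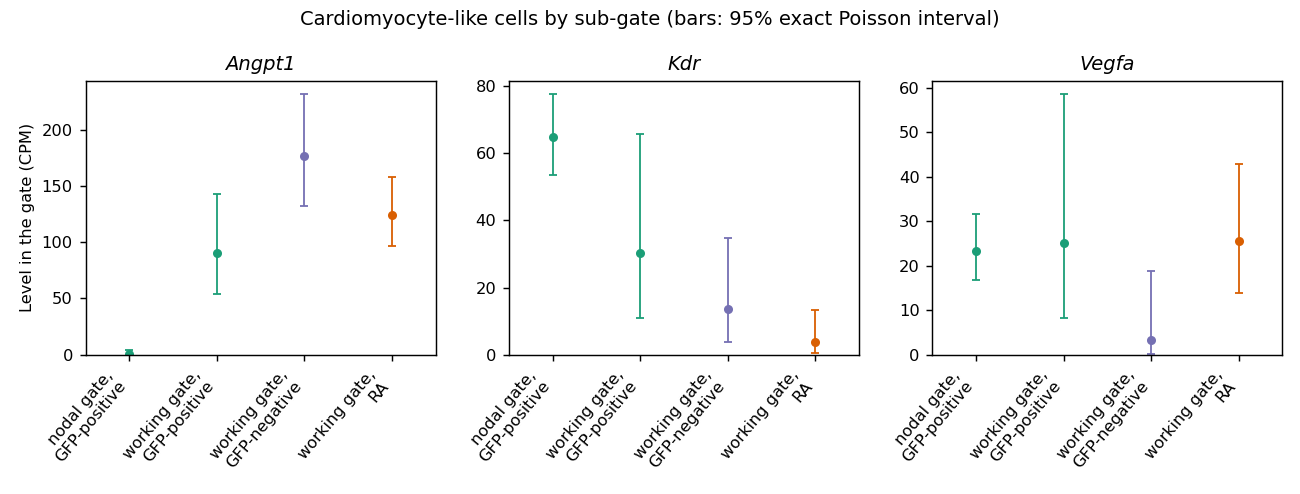
Level (CPM, linear axes from 0) of Angpt1, Kdr and Vegfa in nodal and working atrial sub-gates of cardiomyocyte-like cells, by library; bars are 95% exact Poisson intervals from 98, 11, 20 and 30 cells, left to right. Angpt1 is near 0 (1.12 CPM) in nodal cells and between 90.4 and 177 CPM in the 3 working atrial pools.

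Vegfa, the main ligand of Kdr and Flt1, had few UMIs in all classes. In 2 of the libraries its highest levels were in cardiomyocyte-like cells, with 24.1 CPM in GFP-positive (56 UMIs) and 19.8 CPM in RA cells (14 UMIs), and the ratio between them spanned equality. The 32 GFP-negative cardiomyocyte-like cells had 4.86 CPM on 2 UMIs, with an interval of 0.589 to 17.6. Nodal and working atrial cells of the GFP-positive library had 23.4 and 25.1 CPM. Endothelial-like cells had 10.4 CPM in GFP-positive, 4.17 in GFP-negative and 4.56 in RA cells, so that GFP-positive cells were 2.49-fold and 2.28-fold higher, on 7 and 11 UMIs in the other 2 libraries. The call against RA cells was lost at 2000 UMIs per cell (log2 ratio 0.52). Fibroblast-like cells had 7.74 CPM in GFP-negative and 9.94 CPM in RA. Vegfa was also the sole member with enough UMIs between macrophage-like cells, with 15.7 CPM in GFP-negative (15 UMIs in 7 cells) against 4.87 CPM in RA (5 UMIs in 1 cell), beside 7.8% of genes. With markers at 1 UMI in the gate the log2 ratio was −0.37, on too few UMIs for a call.

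Vegfc and Figf are the lymphatic growth factors that act on Flt4. Among classes of at least 50 cells, both were highest in fibroblast-like cells of the RA library. Their highest class differed in the other 2 libraries. Vegfc was highest in endothelial-like cells of the GFP-positive library and in fibroblast-like cells of the other 2 libraries. Endothelial-like cells had 40.3 CPM in GFP-positive (1323 UMIs), 16.1 in GFP-negative (27 UMIs) and 15.3 in RA (37 UMIs), so the GFP-positive level was 2.50-fold and 2.63-fold higher. The call against GFP-negative cells was lost at 2000 UMIs per cell (log2 ratio 0.62) and without the 10% of cells with the most UMIs (0.95). The arterial sub-gate of the GFP-positive library stood at 83.2 CPM (407 UMIs), 2.54-fold over the other endothelial-like cells. With cells of several sub-gates placed by most markers, arterial levels were alike in the libraries, with overlapping intervals. They were 83.2 CPM in GFP-positive (700 cells), 100 in GFP-negative (10 UMIs in 7 cells) and 73.6 in RA (8 UMIs in 9 cells). In the lymphatic sub-gate of the GFP-positive library no UMI of Vegfc was found. This is at least 4.43-fold lower than in the other cells when 0 is set to 3 UMIs, and with cells of several sub-gates included Vegfc stood at 4.65 CPM on 7 UMIs. The capillary and endocardial sub-gates are held by all 3 libraries, and Vegfc ran in opposite directions in them. In the capillary sub-gate it stood at 31.3 CPM in GFP-positive (6 UMIs, 11.5 to 68.1), 5.75 CPM in GFP-negative (3 UMIs, 1.19 to 16.8) and 7.26 CPM in RA (3 UMIs, 1.497 to 21.2), from 24, 53 and 31 cells. With cells of several sub-gates placed by most markers, these levels were 35.8, 3.75 and 5.54 CPM, and the GFP-positive interval (24.5 to 50.6) lay above the other 2. Within the endocardial sub-gate the direction between libraries was the opposite: 9.56 CPM in GFP-positive (13 UMIs), 23.0 CPM in GFP-negative (8 UMIs) and 20.8 CPM in RA (9 UMIs), from 141, 36 and 45 cells, and both ratios spanned equality. With cells of several sub-gates placed by most markers, the endocardial levels were 10.7, 17.6 and 14.0 CPM. They were thus closer together, with overlapping intervals. The split by sub-gate was chosen after the data were seen. The endothelial-like pools differed in makeup, with the arterial sub-gate holding 373 of 2368 cells in GFP-positive, 4 of 162 in GFP-negative and 3 of 209 in RA. Fibroblast-like cells had 24.2 CPM of Vegfc in GFP-negative and 35.3 CPM in RA, and macrophage-like cells had 0 and 1 UMI.

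Among the classes of the GFP-negative library, Figf stood highest in mural-like and fibroblast-like cells. In the GFP-negative library mural-like cells, which wrap vessels, had 437 CPM (1146 UMIs) and fibroblast-like cells had 135 CPM (2312 UMIs), while its other classes of 50 cells or more stood at 12.5 CPM or less. In mural-like cells the UMIs came from 102 of 268 cells, and 44 cells with at least 10 UMIs held 83.8% of them. The smooth muscle sub-gate had 381 CPM and the pericyte sub-gate 157 CPM, the pericyte UMIs coming from 8 of 73 cells. The highest level, 726 CPM (652 UMIs), was in the 91 mural-like cells with no or several sub-gates, which also had the most fibroblast markers, 4337 CPM, against 2202 in smooth muscle and 1911 in pericyte sub-gate cells. Over the whole class the 7 fibroblast markers summed to 2854 CPM, against 11489 CPM in fibroblast-like cells, and none was at 0, and their part in the mural level was not tested. The 43 mural-like cells of the RA library had 72.8 CPM, of which 34 of 36 UMIs lay in 1 cell, and RA fibroblast-like cells had 79.4 CPM. Of the 6916 Figf UMIs of the GFP-negative library, 3178 (46.0%) lay in cells that passed several gates and belong to no class here. In endothelial-like cells Figf stood at 2.10 CPM in GFP-positive, 12.5 in GFP-negative and 3.73 in RA. The GFP-negative value was also the one past 2-fold in both comparisons of that class, and in the same library macrophage-like cells, with 10.5 CPM, stood at a similar level.

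Angpt2 was read in endothelial-like cells at 12.6 CPM in GFP-positive, 23.8 in GFP-negative and 22.4 in RA. Within the GFP-positive library the lymphatic sub-gate stood apart at 129 CPM (42 UMIs in 15 of 34 cells), 11.2-fold over the other endothelial-like cells, and cells without a sub-gate stood at 35.5 CPM. With cells of several sub-gates included, the lymphatic level was 64.4 CPM. Other sources were mural-like cells, with 28.2 CPM in GFP-negative and 18.2 CPM in RA, and glial-like cells, with 29.7 CPM on 16 UMIs in GFP-negative, and the intervals of these values overlapped. Fibroblast-like cells had 15.02 CPM in GFP-negative against 5.19 CPM in RA, a 2.90-fold difference. The makeup of these pools differed, with 416 of 1401 cells in GFP-negative and 4 of 436 in RA having Mfap5 without Tcf21. Among cells with Tcf21 but no Mfap5, Angpt2 stood at 14.9 CPM in GFP-negative (9.54 to 22.2) and 7.86 CPM in RA (4.06 to 13.7), with overlapping intervals. Among cells with both genes it stood at 14.6 CPM (12.2 to 17.4) and 4.45 CPM (2.82 to 6.68). This was 1 of the 2 calls among members between fibroblast-like cells, against 11.9% of genes. The other was Tie1, with 1.34 CPM in GFP-negative and 5.76 CPM in RA, and there the summed endothelial markers were 32.8 and 72.9 CPM.

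**Figure D5:**
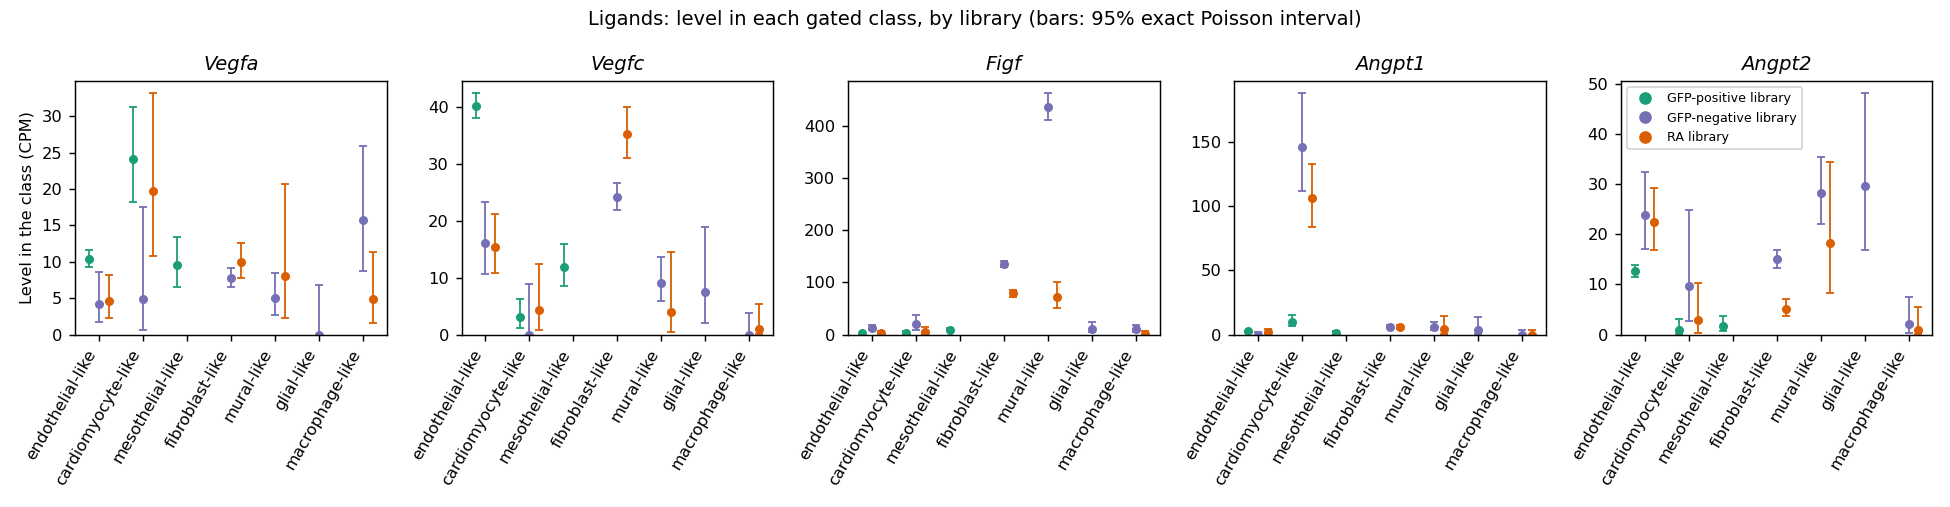
Level (CPM, linear axis from 0) of the 5 ligands in each gated class with at least 30 cells, by library; points are single libraries and bars are 95% exact Poisson intervals. Figf reaches 437 CPM in mural-like cells of the GFP-negative library, Angpt1 146 and 106 CPM in cardiomyocyte-like cells of the GFP-negative and RA libraries, and Vegfc 40.3 CPM in GFP-positive endothelial-like cells.

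A list of 23 further genes of the 2 pathways was read alongside. In GFP-positive against GFP-negative endothelial-like cells, 5 of 21 genes with enough UMIs were at least 2-fold higher, 3 were lower and 13 lay between, beside 16.1% of all genes past 2-fold, and the list's median log2 ratio was −0.09. The higher ones included Ptprb, the phosphatase that acts on Tek, with 494 CPM in GFP-positive and 62.6 CPM in GFP-negative cells. Klf2, a flow-responsive transcription factor, had 1100 and 408 CPM, and Nos3, the endothelial nitric oxide synthase, had 149 and 60.2 CPM. The lower ones were Apln (7.98 and 39.9 CPM), Esm1 (0.883 and 8.94 CPM) and Kcne3 (3.62 and 14.9 CPM), genes known from sprouting tip cells. Dll4 (17.9 and 32.2 CPM), Cxcr4 (4.08 and 7.75 CPM) and Pdgfb (16.5 and 26.8 CPM), also on the list, lay between. Against RA endothelial-like cells, 5 of 21 were higher, 2 were lower and 14 lay between, beside 17.6% of genes, with a median of 0.28. The RA values were 74.3 CPM for Ptprb, 450 for Klf2 and 66.0 for Nos3. The lower ones against RA were Kcne3 (15.3 CPM in RA) and Cxcr4 (8.30 CPM in RA). Apln (11.2 CPM in RA) and Esm1 (0 UMIs in RA) lay between there. Between GFP-negative and RA endothelial-like cells 1 of 18 was past 2-fold, beside 4.98% of genes: Apln, with 39.9 against 11.2 CPM. In fibroblast-like cells, GFP-negative against RA, 5 of 18 were higher and 1, Ptprb, was lower, with 4.54 against 26.4 CPM, beside 11.9% of genes. Among cardiomyocyte-like cells, GFP-positive against RA, 3 of 12 were higher, Ptprb, Nos3 and Klf2, and 0 were lower, beside 19.7% of genes. The summed endothelial markers moved with Ptprb in both classes, with 32.8 CPM in GFP-negative and 72.9 CPM in RA fibroblast-like cells, and 312 CPM in GFP-positive and 69.2 CPM in RA cardiomyocyte-like cells. Relative to endothelial-like cells of the same library, Ptprb itself lay above the range of the 7 markers. It had 26.4 CPM in RA fibroblast-like and 74.3 CPM in RA endothelial-like cells, beside markers at 1.03% to 3.004%. In the GFP-positive library it had 147 CPM in cardiomyocyte-like and 494 CPM in endothelial-like cells, beside markers at 3.87% to 8.52%. The part of the markers in these differences was not tested. Vegfb, a ligand of Flt1, was highest in cardiomyocyte-like cells, with 140 CPM in GFP-positive, 102 in GFP-negative and 143 in RA cells. The co-receptor Nrp1 was read in endothelial-like cells at 378, 504 and 469 CPM in the same order, and in mural-like cells at 285 CPM in GFP-negative and 223 CPM in RA.

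Across 27 pools of class or sub-gate and library with at least 20 cells, likeness to each member was measured as the Pearson correlation of log2(CPM + 1) among 10350 genes. The genes most like Tie1 were Mall (0.97), Stap2 and Rasip1. For Tek they were Ramp2 (0.97), Slco2a1 and Eng, for Kdr Podxl (0.94), F11r and Arhgef15, for Flt1 Slc26a10 (0.95), Mmrn2 and 9430020K01Rik, and for Flt4 Erg (0.92), Sox18 and Adgrg3. Among the members themselves Kdr and Tie1 were closest (0.94), and Kdr and Tek were less alike (0.78). For the ligands the leading genes were Slc1a6 (0.88) for Figf, Krtcap2 (0.85) for Vegfc, RP23-378D16.4 (0.82) for Angpt1, Fam133b (0.78) for Angpt2 and Wdfy3 (0.74) for Vegfa. Pools of 1 library share its preparation, depth and free RNA, so these correlations are descriptions with no test.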

How the data were processed

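UMI counts per gene and barcode were deposited by the authors as whole numbers for 3 libraries. The submitters' processing notes name Cell Ranger and mm9, whose versions and settings are not given in the sources used here. Counts were used as deposited, with Python 3.11.15, NumPy 2.4.6 and SciPy 1.17.1. The members, marker sets and pathway list were chosen with earlier results of these data known. Of 96 markers, 1 was not found under 1 ID. Cells passing several class gates (1360) or none (517) were left out of classes, and no doublet caller was run. Poisson, Clopper-Pearson and conditional binomial intervals (95%) cover counting error only. Named genes were the 10 members, the pathway list genes with at least 20 UMIs in a class, and per member the 3 genes with the most similar pattern. The calls were tried on simulated counts before use, drawn with counting error only and with changes larger than 2-fold in well-read genes. That trial does not cover calls on few UMIs or the spread between cells or libraries. Other marker thresholds (1 or 3 UMIs), cell filters (1000 genes and 10% mitochondrial), thinning to 2000 UMIs, scaling without haemoglobin and mitochondrial genes, and a minimum of 10 UMIs were tried. Each library alone, endocardial cells alone and the split of fibroblast-like cells by Tcf21 and Mfap5 were added after the data were seen.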

Additional observations from a re-analysis of the deposited data

How the results depend on the processing

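The number of receptors highest in endothelial-like cells, the number of ligands highest outside them and the counts of members past 2-fold had 76 alternative values, of which 64 stayed within 1.5 times the value given. A like number does not mean the same classes or members. The class of highest level over all libraries was glial-like for Angpt2 and became mural-like with markers at 1 UMI, with markers at 3 UMIs, with cells of several gates placed by most markers and at 2000 UMIs per cell. For Vegfa it was cardiomyocyte-like and became mesothelial-like with markers at 1 UMI. Within single libraries, among classes of at least 50 cells, it differed for each ligand in at least 1 library. For Angpt1 this was the GFP-negative library, where the 32 cardiomyocyte-like cells, with 60 UMIs and the highest level, fell under that minimum. Likewise, the 12 fibroblast-like cells of the GFP-positive library, with 29 UMIs of Figf, were not ranked. Within the endocardial sub-gate the members called in GFP-positive cells were Vegfc and Angpt2, lower, and, against RA, Flt4, higher. None of these is a call of the whole class in that direction, and no share over all genes stands beside them. Against RA, the ratios of Vegfc (9 UMIs in RA) and Flt4 (2 UMIs in RA) spanned equality. The count for GFP-negative against RA endothelial-like cells was 1 and became 0 with markers at 1 UMI, at 2000 UMIs per cell and within the endocardial sub-gate (chosen after seeing the data). The count for GFP-positive against RA cardiomyocyte-like cells became 0 at 2000 UMIs per cell, and the count for GFP-negative against RA fibroblast-like cells became 1 there. For macrophage-like cells the count became 0 with markers at 1 UMI, with markers at 3 UMIs, without the 10% of cells with the most UMIs and at 2000 UMIs per cell, 2 with cells of several gates placed by most markers, and 3 with at least 10 UMIs for a ratio. The count over the endothelial sub-gates was 15 and became 9 with markers at 1 UMI. Of 370 alternative values of ratios, each with 0.5 UMIs added to both groups, 4 reversed: Vegfc in GFP-positive endothelial-like cells within the endocardial sub-gate (log2 −1.30 against GFP-negative and −1.15 against RA), Flt1 in cardiomyocyte-like cells at 2000 UMIs per cell (−0.031) and Vegfa in macrophage-like cells with markers at 1 UMI (−0.37). The cause was not tested. Of 103 alternative values of the 14 called ratios, 82 kept their call and 19 lost it. The 4 reversals all fall among these 103 values, and some of them are also counted as lost. No paired analysis was possible because each group is 1 library, and depth limits calls for Vegfa, Flt4 and Angpt1 outside the classes where they are abundant.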
